A study of Danio rerio with 6 samples.

Results

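The integrated stress response genes described here are atf3, atf4a, atf4b, ddit3, trib3, chac1, asns, ddit4, xbp1 and atf6 of the zebrafish, followed in a melanoma cell line and in its drug-resistant derivative. They were picked by name alone, as rows of the gene count table whose name, in lower case and without any ending for a gene copy, was equal to 1 of the 10 names. Of the 27126 gene names in the table, 8 matched: all but atf4a and atf4b. The table does hold rows named atf4b1 and atf4b2, which RefSeq lists as synonyms of atf4a and atf4b, and these are described beside the 8 genes but not counted among them.

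RNA was isolated from 6 cultures, 3 of ZMELR1 and 3 of ZMEL1, and sequenced after enrichment for polyA mRNA. ZMEL1 is a stable line grown from a skin melanoma of 1 transgenic fish, with an oncogenic human BRAF transgene driven by the mitfa promoter, which is active in melanocytes. The fish was p53-/- and mitfa-/- and held a mosaic rescue cassette with mitfa and EGFP, and both lines share all of this. ZMELR1 grew out of ZMEL1 over months of selection with a BRAF inhibitor, first PLX4720 and later PLX4032 (vemurafenib), and was kept in 1 μM PLX4032, while ZMEL1 was kept without the inhibitor, in its solvent DMSO. The resistant line is thus a single selected population sampled with the drug present, and the effects of the selection and of the drug in the medium cannot be told apart.

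In the integrated stress response, kinases that sense unfolded protein, missing amino acids, missing heme or double-stranded RNA phosphorylate the translation factor eIF2 alpha, which lowers protein synthesis in general while the mRNA of the transcription factor ATF4 is translated more. ATF4 and its target CHOP, encoded by ddit3, then switch on genes for amino acid supply, for feedback and, if the stress lasts, for cell death. XBP1 and ATF6 belong to the other arms of the unfolded protein response of the endoplasmic reticulum (ER). Most of this is known from mammalian cells and yeast. Since ATF4 is set mainly by translation, ATF6 by cleavage and XBP1 by splicing of its mRNA, gene counts show the mRNA level of these factors and neither their protein nor the spliced form.

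The ZMELR1 libraries held 61535449, 83741911 and 42591832 counts, and the ZMEL1 libraries between 62973267 and 67904002. Levels are given as CPM, the counts of a gene per total count of its library on a common scale, with TMM factors of 0.935 to 1.08. CPM is not divided by gene length, so levels were compared between libraries and not between genes. The exception is the marker sums below, where levels of different genes are set side by side without a correction for length. The melanocyte factor mitfa was present in every library, at 832 to 949 CPM in ZMELR1 and 429 to 592 CPM in ZMEL1. So was the factor sox10, at 558 to 608 CPM in ZMELR1 and 384 to 437 CPM in ZMEL1. Counts of mitfa may include mRNA of the rescue cassette, which they do not separate from that of the mutant mitfa gene. Of 9 melanocyte markers tested, 3 were higher in ZMELR1 and 1 lower at an adjusted p under 0.05 in edgeR. Over all genes tested the shares were 3.62% and 2.68%. For 6 of the 9, ZMELR1 replicate 3 was below the mean of ZMELR1 replicates 1 and 2. Over all genes tested, the median difference of this library from that mean was -0.0069 in log2 CPM. Named after their values were seen, dct differed from that mean by 4.32 in log2 CPM, pmela by -2.71, slc24a5 by -1.85 and tyr by -1.51. The leukocyte marker ptprc did not exceed 0.545 CPM. Summed over 11 leukocyte markers the level was 13.6, 12.5 and 29.9 CPM in ZMELR1 replicates 1, 2 and 3, against 8.73 to 10.1 CPM in ZMEL1. Over 11 fibroblast markers it was 24.0, 25.0 and 50.4 CPM in ZMELR1, against 23.6 to 30.2 CPM in ZMEL1. Both sums were thus highest in ZMELR1 replicate 3, but the single markers were split. Of 6 leukocyte markers tested, this library was the highest of all libraries for 2 and the lowest for 2. Of 7 fibroblast markers tested, it was the highest for 4 and the lowest for 1. The 9 epithelial markers summed to 3159 to 4282 CPM in ZMELR1 and 2362 to 3483 CPM in ZMEL1, above the 12 melanocyte markers (1622 to 1826 CPM in ZMELR1 and 978 to 1120 CPM in ZMEL1). Nearly all of the epithelial sum was krt8 and krt18, keratins of simple epithelia, and epcam did not exceed 0.0684 CPM. Of the 6 epithelial markers tested, 3 had a positive log2 fold change of ZMELR1 over ZMEL1. Named after its values were seen, krt4 had log2 fold changes of -2.37 to -1.96 with single libraries left out. In ZMELR1 replicate 3 cdh1, also named after its values were seen, was 2.74 in log2 CPM above the mean of ZMELR1 replicates 1 and 2. Only 0.639% of all genes tested were as far above. The log2 fold change of cdh1 ran from -2.01, without ZMELR1 replicate 3, to -0.063 with single libraries left out. Other epithelial markers did not all follow. ZMELR1 replicate 3 was below that mean for 2 of the 6 tested, among them krt18 at -0.73, and the highest of all libraries for 1. The part of other cell types in the results was not tested. ZMELR1 replicate 3, the library with the fewest counts, was the highest of the 6 libraries for 27.3% of the genes tested and the lowest for 25.8%. These shares were not taken for the other libraries. In bulk RNA, fewer cells that express a gene and less of its mRNA per cell cannot be told apart.

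None of the 8 genes differed between the lines at an adjusted p under 0.05 in edgeR's quasi-likelihood test, where 3.62% of the 16589 genes tested were higher in ZMELR1 and 2.68% lower. At an unadjusted p under 0.05 there were 2, xbp1 and ddit3, against 24.3% of all genes tested. DESeq2 called 1, xbp1, as higher, beside 6.07% of all genes higher and 5.57% lower, and limma-voom called 0, beside 3.35% and 2.50%. With the replicate number as a block, used because same-numbered libraries of the lines deviated together, edgeR called 2 of the 8: xbp1 was higher in ZMELR1, beside 12.9% of all genes, and asns was lower, beside 12.0%. The lines did not overlap for 3 of the 8: xbp1 and ddit3 had all ZMELR1 libraries above all ZMEL1 libraries, which held for 17.0% of all genes, and asns all below, which held for 14.5%. The median log2 fold change of the 8 genes was -0.07, against 0.02 over all genes tested.

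**Figure D1:**
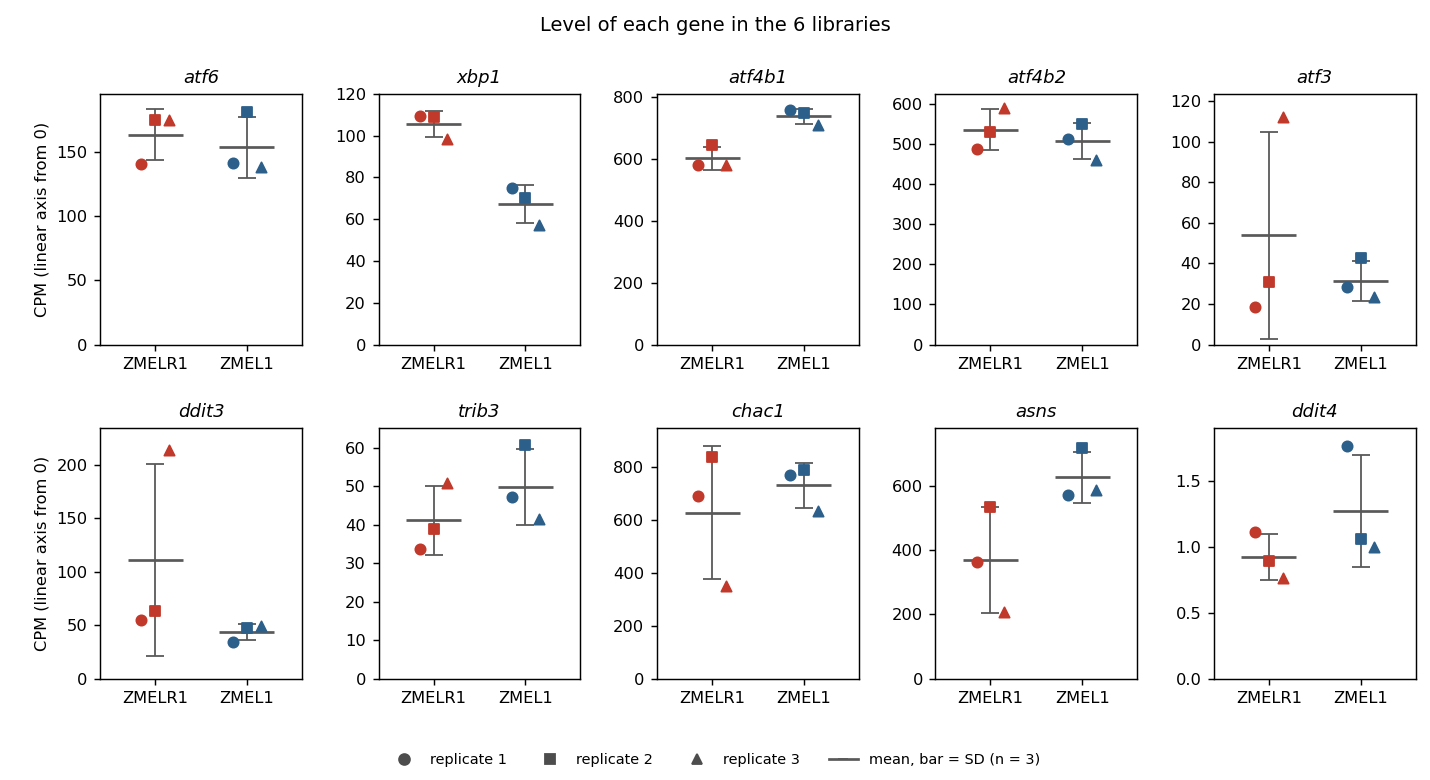
Level of each of the 8 genes, and of atf4b1 and atf4b2, in the 3 ZMELR1 libraries (red, left) and the 3 ZMEL1 libraries (blue, right), in CPM on linear axes from 0; symbols give the replicate number, and lines with bars the mean and SD. ZMELR1 replicate 3 (red triangle) lies far above the other libraries for atf3, at 112 CPM, and ddit3, at 214 CPM, and below them for chac1, at 349 CPM, and asns, at 208 CPM, while xbp1 separates the lines with little spread.

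Of the ER stress factors, xbp1 had a higher level in every ZMELR1 library than in any ZMEL1 library, and atf6 did not. The gene xbp1 encodes the transcription factor whose mRNA is spliced by the ER sensor IRE1 (ern1) and which then drives genes of ER-associated degradation. It had 109, 109 and 98.4 CPM in ZMELR1 replicates 1, 2 and 3, against 75.1, 70.0 and 57.3 CPM in ZMEL1. By replicate number the ZMELR1 minus ZMEL1 differences in log2 CPM were of like size, at 0.54, 0.63 and 0.78. Its log2 fold change was 0.65 (SE 0.160; adjusted p = 0.062 in edgeR), with means of 105 ± 6.19 CPM in ZMELR1 and 67.5 ± 9.14 CPM in ZMEL1 (SD, n = 3 each). The call depended on the test: the adjusted p was 0.0133 in edgeR with the replicate block and 0.0382 in DESeq2, and it stayed between 0.061 and 0.173 in edgeR without the block when any 1 library was left out.

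The levels of atf6 overlapped between the lines. It encodes a membrane-bound factor that is cut and released in ER stress and then raises chaperone genes. It had 139.9, 175 and 174 CPM in ZMELR1, against 141, 181 and 138 CPM in ZMEL1. Of the 3 differences by number, 2 were close to 0, at -0.01 and -0.05 in log2 CPM, and replicate 3 gave 0.34. Its log2 fold change was 0.09 (SE 0.178; adjusted p = 0.791 in edgeR).

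Neither row for the copies of ATF4, the central factor of the response, passed the test. The row atf4b1 had 578, 644 and 581 CPM in ZMELR1, against 755, 746 and 709 CPM in ZMEL1. All its ZMELR1 libraries lay below all its ZMEL1 libraries, with differences of -0.39, -0.21 and -0.29 in log2 CPM for replicates 1, 2 and 3. Its log2 fold change of -0.29 (SE 0.160) did not pass the test (adjusted p = 0.304 in edgeR). The row atf4b2 had 487, 528 and 589 CPM in ZMELR1, against 511, 549 and 459 CPM in ZMEL1, and here the lines overlapped. Its log2 fold change was 0.08 (SE 0.168; adjusted p = 0.805 in edgeR). The difference between the copies was not tested.

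Among the stress-induced factors downstream of ATF4, atf3 and ddit3 had the largest log2 fold changes of the 8 genes, and both had their highest level by far in ZMELR1 replicate 3. The bZIP factor ATF3 is a rapidly induced regulator that acts with ATF4 and CHOP. The gene atf3 had 18.5, 30.7 and 112 CPM in ZMELR1, against 28.4, 42.5 and 23.6 CPM in ZMEL1. Only replicate 3 of ZMELR1 was above the ZMEL1 range, and replicates 1 and 2 were below the ZMEL1 libraries of the same number, with differences of -0.62 and -0.47 in log2 CPM. The coefficient of variation was 94.7% in ZMELR1 and 31.1% in ZMEL1. The log2 fold change was 0.77 (SE 0.628; adjusted p = 0.486 in edgeR), and it turned to -0.35 (adjusted p = 0.561 in edgeR) without ZMELR1 replicate 3.

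CHOP, the product of ddit3, is the factor most linked to cell death after lasting ER stress. Its gene had 54.6, 63.4 and 214 CPM in ZMELR1, against 34.5, 47.5 and 48.8 CPM in ZMEL1. Unlike atf3, ddit3 was higher in every ZMELR1 library than in any ZMEL1 library, although replicates 1 and 2 were higher by only 0.66 and 0.42 in log2 CPM, against 2.13 for replicate 3. Its mean was 111 ± 89.6 CPM in ZMELR1 and 43.6 ± 7.92 CPM in ZMEL1 (SD, n = 3 each). Between the lines the log2 fold change was 1.34 (SE 0.517; adjusted p = 0.171 in edgeR). Without ZMELR1 replicate 3 it was 0.44 (SE 0.202; adjusted p = 0.244 in edgeR).

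None of the ATF4 target genes trib3, chac1, asns and ddit4 was above ZMEL1 in more than 1 of the 3 ZMELR1 libraries when libraries of the same number were set side by side. TRIB3 is a pseudokinase that restrains ATF4 and CHOP in a feedback loop. Its gene trib3 had 33.6, 38.8 and 50.9 CPM in ZMELR1, against 47.2, 60.7 and 41.6 CPM in ZMEL1. The lines overlapped, with differences in log2 CPM of -0.49 and -0.65 for replicates 1 and 2 and of 0.29 for replicate 3. The log2 fold change was -0.28 (SE 0.222; adjusted p = 0.476 in edgeR).

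The enzyme CHAC1 breaks down glutathione and is a target of ATF4 and CHOP. The gene chac1 had 689, 838 and 349 CPM in ZMELR1, against 769.8, 786 and 631 CPM in ZMEL1. Replicates 1 and 2 lay around the ZMEL1 levels and replicate 3 lay below all other libraries. The log2 fold change was -0.22 (SE 0.319; adjusted p = 0.705 in edgeR) and 0.07 (adjusted p = 0.872 in edgeR) without ZMELR1 replicate 3. Without replicate 3 of both lines it was -0.066.

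Asparagine synthetase, encoded by asns, makes asparagine and is a standard readout of ATF4 when amino acids are short. The gene had 364, 536 and 208 CPM in ZMELR1, against 572, 719 and 588 CPM in ZMEL1. Each ZMELR1 library was below each ZMEL1 library, and the differences by number were -0.65, -0.42 and -1.50 in log2 CPM. Its means were 369 ± 164 CPM in ZMELR1 and 626 ± 80.5 CPM in ZMEL1 (SD, n = 3 each), and the log2 fold change was -0.76 (SE 0.332; adjusted p = 0.213 in edgeR). With the replicate block it fell by 0.86 on the log2 scale (adjusted p = 0.0442 in edgeR). Without ZMELR1 replicate 3 and without the block it was -0.47 (adjusted p = 0.281 in edgeR).

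The mTOR inhibitor ddit4, known in mammals as REDD1, was at a low level in both lines. It had 65, 81 and 31 counts in the ZMELR1 libraries and 104, 74 and 70 counts in the ZMEL1 libraries. In CPM these were 1.11, 0.892 and 0.767 in ZMELR1, against 1.77, 1.06 and 1.00 in ZMEL1, with overlap between the lines. The log2 fold change of -0.45 (SE 0.336) did not pass the test (adjusted p = 0.443 in edgeR).

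**Figure D2:**
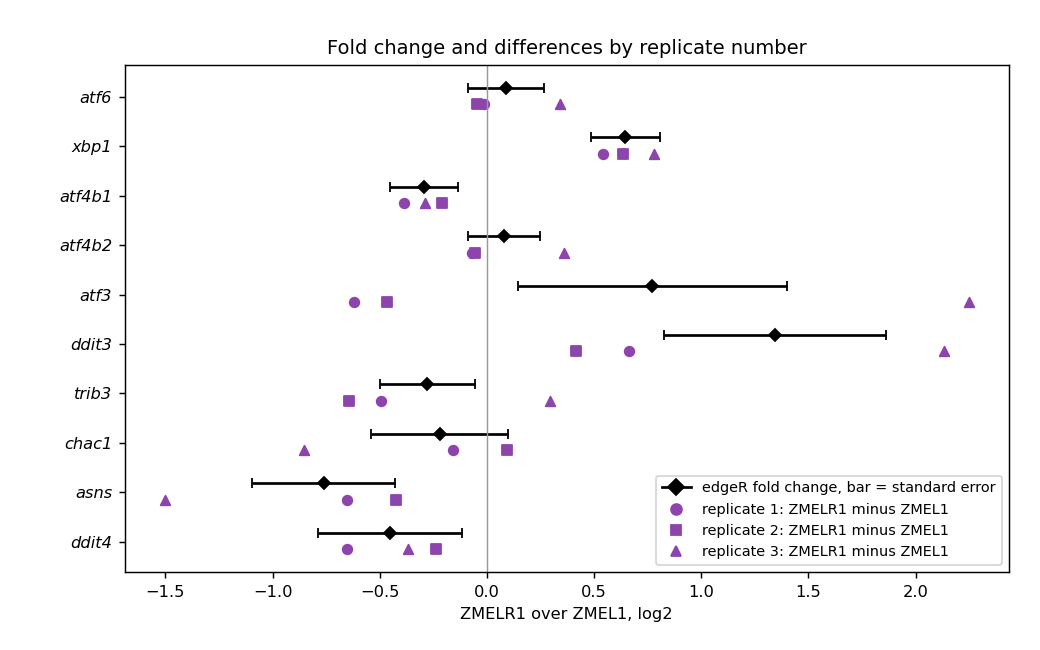
Log2 fold change of ZMELR1 over ZMEL1 for each gene (diamond, bar = standard error of the edgeR fit without the block) and the ZMELR1 minus ZMEL1 difference in log2 CPM for each replicate number (purple symbols). The differences of xbp1, ddit3, asns, ddit4 and atf4b1 lie on 1 side of 0 for all 3 numbers, and the triangle of replicate 3 lies farthest right for atf3, at 2.25, and ddit3, at 2.13, and farthest left for asns, at -1.50.

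The widest spreads among ZMELR1 libraries, those of atf3, ddit3, asns and chac1, had replicate 3 at one end. Its log2 CPM, less the mean of ZMELR1 replicates 1 and 2, was 2.24 for atf3 and 1.86 for ddit3, values that 1.37% and 2.41% of all genes tested reached or passed on the same side of 0. This difference was -1.12 for chac1 and -1.09 for asns, reached on that side by 8.69% and 9.15% of genes. For trib3, atf6, xbp1 and ddit4 it was between -0.36 and 0.50, reached on the same side by over 20% of genes. The factors atf3 and ddit3 and the metabolic enzymes chac1 and asns thus lay on opposite sides of the other ZMELR1 libraries. In ZMEL1 replicate 3, the same difference was smaller, at -0.56 for atf3 and 0.27 for ddit3.

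Some other genes of the pathway, chosen after their values were seen because this library stood far out in them, are given here. In their full lists the library was below the mean of the other ZMELR1 libraries for 7 of 22 stress signaling targets and for 15 of 20 amino acid and one-carbon genes, so neither list lay wholly on 1 side. Over all genes tested, the median difference of this library from that mean was -0.0069 in log2 CPM. The stress target stc2a, for example, had 41.6, 77.9 and 7.55 CPM in ZMELR1, against 77.1, 88.8 and 51.2 CPM in ZMEL1. The gene ppp1r15a encodes GADD34, the stress-induced subunit of the phosphatase that reverses the phosphorylation of eIF2 alpha, and had 71.0, 48.0 and 621 CPM in ZMELR1, against 55.5, 46.5 and 112 CPM in ZMEL1. The autophagy receptor sqstm1 had 144, 106 and 1573 CPM in ZMELR1, against 289, 281 and 478 CPM in ZMEL1. For both genes replicate 3 was the highest library of each line. The serine synthesis enzyme phgdh had 448, 501 and 115 CPM in ZMELR1, against 694, 550.2 and 399.7 CPM in ZMEL1, and psat1, the next enzyme of that route, had 285, 325 and 75.0 CPM in ZMELR1, against 429.8, 365 and 308 CPM in ZMEL1. For both enzymes replicate 3 of ZMELR1 was the lowest of the 6 libraries. With all libraries none of ppp1r15a, sqstm1, phgdh and psat1 passed the test between the lines (edgeR adjusted p of 0.29, 0.641, 0.482 and 0.419). Without ZMELR1 replicate 3, the log2 fold change of sqstm1 was -1.47 (adjusted p = 0.0404 in edgeR) in place of 0.80, so that it was then called lower, and that of ppp1r15a was -0.26 (adjusted p = 0.744 in edgeR) in place of 1.79.

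In the summed level of 22 genes of DNA replication and mitosis, every ZMELR1 library was below every ZMEL1 library, and ZMELR1 replicate 3 was lowest. The sums were 2268, 2749 and 906 CPM in ZMELR1, against 4017, 3997 and 3100 CPM in ZMEL1. ZMELR1 replicate 3 was the lowest of the 6 libraries for 22 of 22 genes, against 25.8% of all genes tested. Of the 22, 0 had a positive log2 fold change, and the median was -0.83. None passed the edgeR test, with 7 at an unadjusted p under 0.05 (24.3% of all genes) and 9 lower with the replicate block (12.0% of all genes). DESeq2 called 5, beside 6.07% of all genes higher and 5.57% lower, and limma-voom 0, beside 3.35% and 2.50%. Without ZMELR1 replicate 3, edgeR called 2 of the 22 lower, against 488 of all 16934 genes tested. The part of proliferation or of library depth in the levels of the stress genes was not tested.

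**Figure D3:**
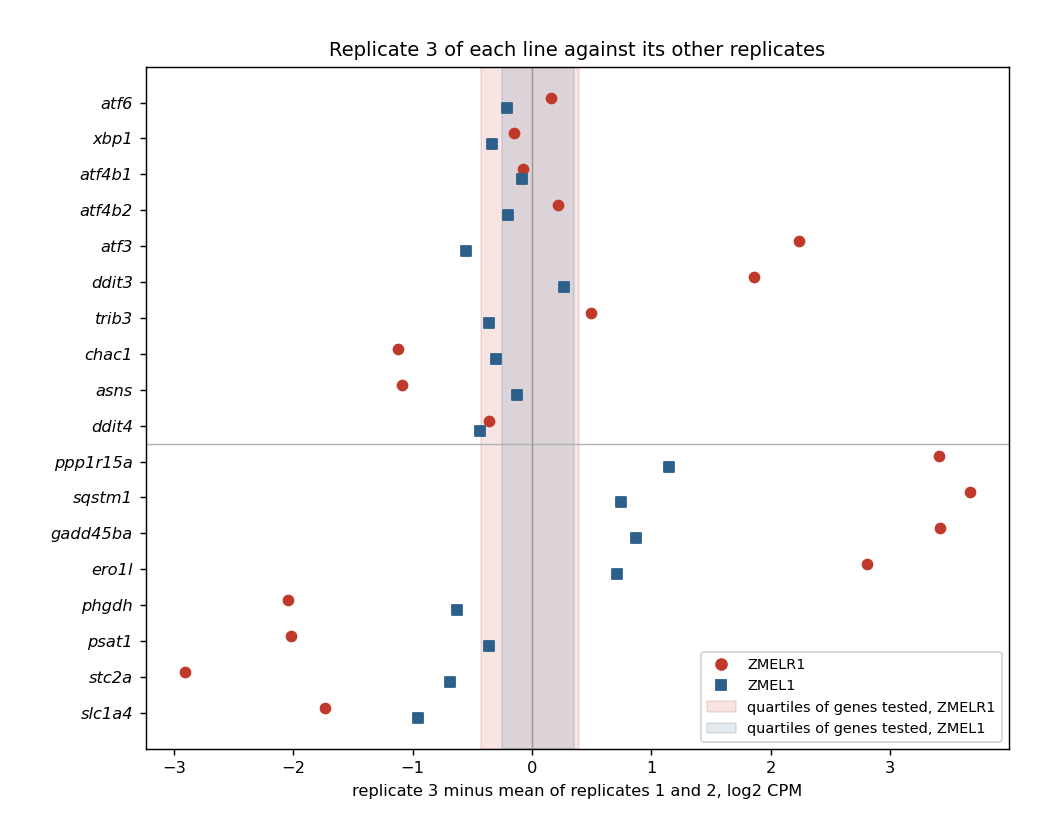
Replicate 3 minus the mean of replicates 1 and 2, in log2 CPM, for ZMELR1 (red circles) and ZMEL1 (blue squares); the upper rows are the 8 genes with atf4b1 and atf4b2, the lower rows are pathway genes chosen after their values were seen, and shading runs from the lower to the upper quartile of the genes tested. In ZMELR1 that band runs from -0.43 to 0.39; atf3, ddit3, trib3, ppp1r15a, sqstm1, gadd45ba and ero1l lie to its right, and chac1, asns, phgdh, psat1, stc2a and slc1a4 to its left.

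Upstream of the 8 genes, a list of 18 genes held eIF2 alpha kinases, phosphatase subunits, subunits of eIF2 and of its exchange factor eIF2B, and eif2a, impact and gcn1l1. None of the 18 passed the test, and the median log2 fold change was -0.10. With an unadjusted p under 0.05 there were 2 genes, against 24.3% of all genes tested. DESeq2 and limma-voom called 0, and the replicate block gave 1 higher and 2 lower, beside 12.9% and 12.0% of all genes. Of the kinases, PERK (eif2ak3), which senses unfolded protein in the ER, had 39.7, 39.4 and 36.2 CPM in ZMELR1, against 25.9, 30.9 and 25.8 CPM in ZMEL1. These ranges did not overlap, and the log2 fold change was 0.48 (adjusted p = 0.12 in edgeR without the block and 0.0345 with it). The heme-regulated kinase eif2ak1 had 39.8 ± 0.866 CPM in ZMELR1 and 36.0 ± 1.17 CPM in ZMEL1, with a log2 fold change of 0.15 (adjusted p = 0.555 in edgeR), and the amino acid sensor GCN2 (eif2ak4) had 13.1 ± 1.13 CPM in ZMELR1 and 11.9 ± 1.99 CPM in ZMEL1, with a log2 fold change of 0.13 (adjusted p = 0.721 in edgeR; SD, n = 3 each). Neither of them was past the test with the block. The phosphatase subunit ppp1r15b, which removes the phosphate from eIF2 alpha without stress, had 18.5 ± 13.6 CPM in ZMELR1 and 8.42 ± 1.54 CPM in ZMEL1 (SD, n = 3 each), with 34.2 CPM in ZMELR1 replicate 3. Over all libraries the log2 fold change was 1.13 (adjusted p = 0.205 in edgeR), and 0.34 (adjusted p = 0.41 in edgeR) without ZMELR1 replicate 3. The kinase for double-stranded RNA, eif2ak2, had 19.2, 18.5 and 53.6 CPM in ZMELR1, against 10.9, 19.4 and 61.7 CPM in ZMEL1, so that replicate 3 was the highest library in each line. Its log2 fold change was -0.01 (adjusted p = 0.992 in edgeR).

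The ER sensor IRE1 (ern1), which splices the mRNA of xbp1, had 34.9, 38.0 and 49.0 CPM in ZMELR1, against 24.1, 31.9 and 30.7 CPM in ZMEL1. Like xbp1, eif2ak3 and eif2ak1, it had all ZMELR1 libraries above all ZMEL1 libraries, which held for 17.0% of all genes. Its log2 fold change was 0.49 (adjusted p = 0.188 in edgeR without the block and 0.0441 with it). The paralog atf6b had 75.3 ± 3.06 CPM in ZMELR1 and 81.6 ± 6.52 CPM in ZMEL1 (SD, n = 3 each), with a log2 fold change of -0.11 (adjusted p = 0.653 in edgeR).

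In all, 163 genes of the 9 lists of the pathway were tested, atf4b1 and atf4b2 among them. Of the 163, 8 differed between the lines, 4 higher and 4 lower in ZMELR1. This was 4.91% of the list genes, against 6.29% of all genes tested. With the replicate block it was 47, or 28.8% against 24.9%. The counts of each list, above and below, are to be read beside the shares over all genes tested. These were 24.3% at an unadjusted p under 0.05 and 6.07% higher and 5.57% lower by DESeq2. By limma-voom they were 3.35% and 2.50%, and with the replicate block 12.9% and 12.0%. ZMELR1 replicate 3 was the highest of the 6 libraries for 27.3% of all genes and the lowest for 25.8%.

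Most genes of amino acid supply, the best known output of ATF4, had a negative log2 fold change. Of 20 tested amino acid and one-carbon genes, 2 had a positive log2 fold change, and the median was -0.58. The calls were 1 higher and 2 lower, 1 higher and 4 lower by DESeq2, 1 higher and 2 lower by limma-voom, and 1 higher and 12 lower with the replicate block. For 12 of the 20, ZMELR1 replicate 3 was the lowest of the 6 libraries. Cystathionine gamma-lyase (cth), which makes cysteine, had 101, 116 and 120.4 CPM in ZMELR1, against 270.2, 243 and 238 CPM in ZMEL1. It fell by 1.15 on the log2 scale (SE 0.152; adjusted p = 0.00792 in edgeR) and did so past the threshold with any 1 library left out. Phosphoserine phosphatase (psph), the last enzyme of serine synthesis, fell by 1.02 (adjusted p = 0.0365 in edgeR), to 17.6 ± 1.96 CPM in ZMELR1, against 35.6 ± 7.38 CPM in ZMEL1 (SD, n = 3 each). The proline synthesis enzyme pycr1a went the other way, with 44.3 ± 8.57 CPM in ZMELR1 and 19.3 ± 2.66 CPM in ZMEL1 and a log2 fold change of 1.19 (adjusted p = 0.0212 in edgeR; SD, n = 3 each).

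A list of 18 genes held cytosolic tRNA synthetases and xpot, which encodes a tRNA export factor. None of the 18 passed the test, although 17 of 18 had a negative log2 fold change, with a median of -0.35. At an unadjusted p under 0.05 there were 7, against 24.3% of all genes tested. DESeq2 called 4, limma-voom 0 and edgeR with the replicate block 7, all lower. The shares of all genes called lower were 5.57%, 2.50% and 12.0%. ZMELR1 replicate 3 was the lowest of the 6 libraries for 11 of these 18 genes and for 6 of the 11 amino acid transporters tested. The smallest p-values were those of qars and hars, which load glutamine and histidine onto their tRNAs. The log2 fold change of qars was -0.68 (adjusted p = 0.0824 in edgeR without the block and 0.012 with it), and that of hars was -0.68 (adjusted p = 0.0846 in edgeR without the block and 0.0179 with it). Of these 11 transporter genes none passed, with 3 at an unadjusted p under 0.05 and 0 by DESeq2 and by limma-voom. With the replicate block 1 was higher and 2 lower, beside 12.9% and 12.0% of all genes. The median log2 fold change was -0.28. The glycine transporter slc6a9 had 204 ± 75.4 CPM in ZMELR1 and 102 ± 15.8 CPM in ZMEL1 (SD, n = 3 each). Its log2 fold change was 1.00 (adjusted p = 0.0985 in edgeR without the block and 0.0224 with it). Without the block, slc6a9 passed without ZMELR1 replicate 3 (1.27, adjusted p = 0.0153 in edgeR). It also passed without replicate 3 of both lines (1.14, adjusted p = 0.0417 in edgeR). The amino acid transporter slc43a1b was barely expressed, at most 0.11 CPM in ZMELR1 and 0.243 CPM in ZMEL1, with a log2 fold change of -1.57 (adjusted p = 0.0836 in edgeR).

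Of 22 stress signaling targets of ATF4 and CHOP, 2 were higher and 1 lower, beside 3 and 1 by DESeq2, 2 and 0 by limma-voom and 6 and 2 with the replicate block, and ZMELR1 replicate 3 was the highest of the 6 libraries for 10. Both higher genes were sestrins, stress-induced inhibitors of mTORC1. The gene sesn1 had 82.5, 62.0 and 96.5 CPM in ZMELR1, against 30.2, 25.1 and 24.4 CPM in ZMEL1, a log2 fold change of 1.60 (SE 0.208; adjusted p = 0.00776 in edgeR) that stayed past the threshold with any 1 library left out. The gene sesn3 had 4.73 ± 1.22 CPM in ZMELR1 and 1.54 ± 0.113 CPM in ZMEL1, a log2 fold change of 1.62 (adjusted p = 0.0217 in edgeR; SD, n = 3 each). In mammals sesn1 and sesn3 are better known as targets of p53 and of FOXO factors, and sesn2 is the sestrin raised by ATF4. Both lines here come from a p53-/- fish, and the cause of the sestrin differences was not tested. Here sesn2, named after its values were seen, had 40.4, 66.9 and 42.9 CPM in ZMELR1, against 84.3, 106 and 55.1 CPM in ZMEL1, with overlap and a log2 fold change of -0.71 (adjusted p = 0.198 in edgeR without the block and 0.0301 with it). Heme oxygenase hmox1a, which breaks down heme in oxidative stress, fell by 1.77 on the log2 scale (adjusted p = 0.0444 in edgeR), to 0.557 ± 0.183 CPM in ZMELR1, against 1.85 ± 0.608 CPM in ZMEL1 (SD, n = 3 each).

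Of 18 genes in the list of ATF4 partners and related bZIP factors, 1 was higher and 1 lower, both at low levels. This list also held atf4b1 and atf4b2 themselves, and nupr1, trib1 and trib2, which are not bZIP factors. DESeq2 also called 1 higher and 1 lower, and limma-voom 0 higher and 1 lower. The gene cebpa, a bZIP factor of differentiation, had 0.667, 0.881 and 1.24 CPM in ZMELR1, against 0.374, 0.3001 and 0.272 CPM in ZMEL1, with a log2 fold change of 1.54 (adjusted p = 0.0468 in edgeR). The gene batf3, known in mammals from dendritic cells, had 0.222, 0.286 and 0.173 CPM in ZMELR1, against 1.46, 0.657 and 1.01 CPM in ZMEL1. It fell by 2.13 on the log2 scale (adjusted p = 0.0303 in edgeR). In this list ZMELR1 replicate 3 was the highest of the 6 libraries for 10 of 18 genes and the lowest for 1.

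Of the 8 list genes called, 6 lost the call when single libraries were left out. The gene cebpa lost it without any 1 of the 6 libraries, with edgeR adjusted p between 0.065 and 0.15. The gene batf3 lost it without all but ZMEL1 replicate 2, pycr1a and sesn3 without all but ZMELR1 replicate 3, and psph and hmox1a without ZMELR1 replicates 1 or 2 and without ZMEL1 replicates 1 or 2. The adjusted p of these 5 genes then lay between 0.0534 and 0.155. The call of cebpa was also lost in limma-voom (adjusted p = 0.0552), with the filter of at least 1 count in total (0.0622) or at least 10 in every library (0.0542) and in the older quasi-likelihood fit (0.0517). That of hmox1a was lost in limma-voom (adjusted p = 0.0503), with at least 10 counts in every library (0.0551) and in the older fit (0.0523), and that of psph with at least 10 counts in every library (0.0504). Without replicate 3 of both lines, cebpa (0.109) and batf3 (0.0856) lost theirs.

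No gene in the lists of ER genes tied to ATF6 and XBP1 passed the test. Of 13 ER chaperone and folding genes, 0 passed edgeR's test, with 5 at an unadjusted p under 0.05, 3 by DESeq2 and 0 by limma-voom, and a median log2 fold change of -0.35. With the replicate block 5 were lower, and ZMELR1 replicate 3 was the lowest of the 6 libraries for 6 of the 13. The secreted ER stress factor manf had 42.7 ± 13.6 CPM in ZMELR1 and 92.4 ± 15.8 CPM in ZMEL1 (SD, n = 3 each), a log2 fold change of -1.11 (adjusted p = 0.0576 in edgeR without the block and 0.00842 with it). The chaperone hyou1 had 177 ± 33.1 CPM in ZMELR1 and 331 ± 81.4 CPM in ZMEL1 (SD, n = 3 each), a log2 fold change of -0.90 (adjusted p = 0.0689 in edgeR without the block and 0.0259 with it). The best known chaperone of the ER, BiP (hspa5), named after its values were seen, had 735, 756 and 1162 CPM in ZMELR1, against 727, 821 and 622 CPM in ZMEL1. Its ranges overlapped, with a log2 fold change of 0.29 (adjusted p = 0.495 in edgeR).

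A list of 31 genes mostly held genes of ER degradation and translocation, a group known to be raised by XBP1. It also held the sensor ern1, and mbtps1 and mbtps2, which are not of that group. Of the 31, 0 passed edgeR's test, with 4 at an unadjusted p under 0.05 and 0 by DESeq2 and by limma-voom. Their median log2 fold change was 0.16, and the replicate block gave 1 higher, ern1 itself, and 1 lower. The gene herpud2 had 29.9 ± 0.854 CPM in ZMELR1 and 22.8 ± 0.776 CPM in ZMEL1 (log2 fold change 0.39, adjusted p = 0.163 in edgeR), and sel1l, an adaptor of the degradation complex, had 79.8 ± 4.61 CPM in ZMELR1 and 61.3 ± 5.05 CPM in ZMEL1 (0.38, adjusted p = 0.165 in edgeR; SD, n = 3 each). Of 13 mitochondrial stress genes, 0 passed, with 4 at an unadjusted p under 0.05 and 0 by DESeq2 and by limma-voom, and a median log2 fold change of -0.21. The smallest p-values were those of the protease subunit clpxa (log2 fold change 0.53, adjusted p = 0.119 in edgeR without the block and 0.0328 with it) and of the chaperonin hspe1 (-0.76, adjusted p = 0.134 in edgeR without the block and 0.0143 with it).

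**Figure D4:**
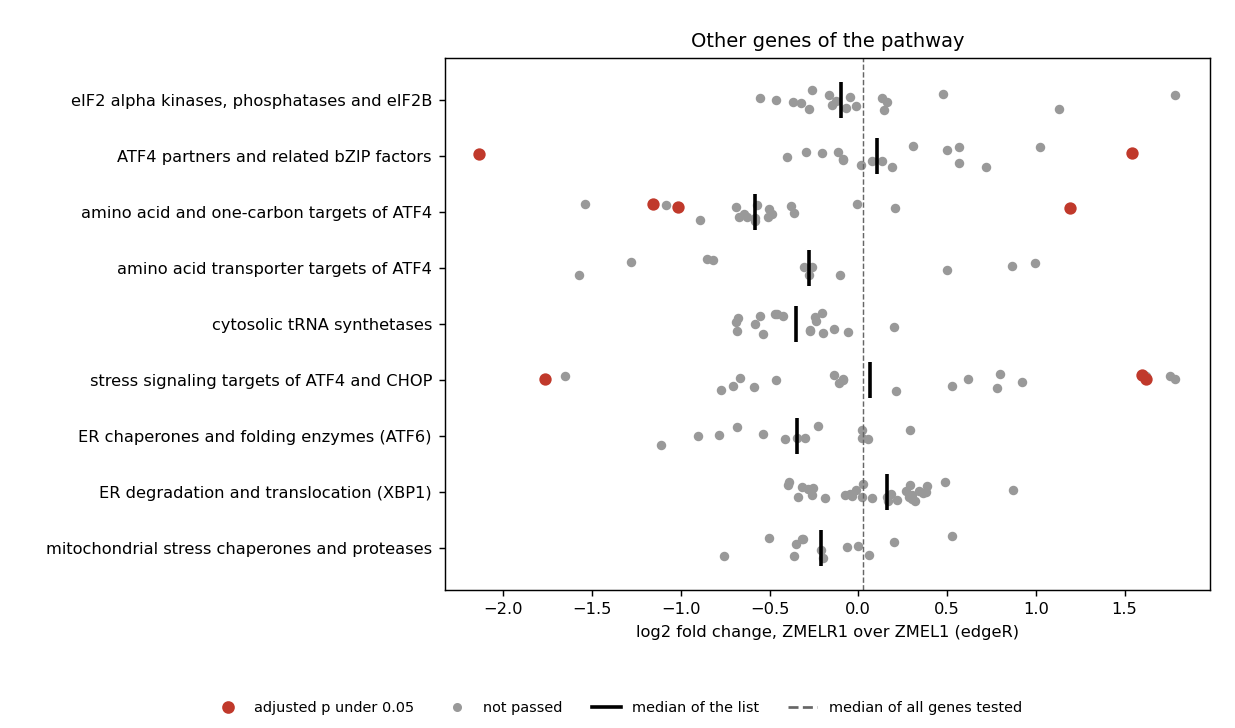
Log2 fold change (edgeR, ZMELR1 over ZMEL1) of every tested gene in the 9 pathway lists; red points passed an adjusted p under 0.05, black bars mark each list's median and the dashed line the median of all genes tested, 0.02. The 8 red points are split evenly about 0, and the lowest median, -0.58, is that of the amino acid and one-carbon genes.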

How the data were processed

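The deposited table holds raw read counts per gene for the 6 libraries. Per the study's methods, the authors aligned the reads to the zebrafish genome Zv9 with TopHat2 and counted them over Ensembl genes with HTSeq-count; the submitters' processing notes name HTSeq, limma and Zv9. Strand handling is not given in the sources used here, nor is the treatment of reads from overlapping genes and close copies. RefSeq synonyms came from a table of another assembly (GRCz12tu), so no coordinates are given, and sequences were not used here.

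Counts were tested in R 4.3.3 with edgeR 4.0.16 (TMM; filterByExpr with a least count of 10 and a least total of 15; quasi-likelihood F test; Benjamini-Hochberg adjustment over all 16589 genes tested; threshold 0.05). Log2 CPM differences used a prior count of 2. DESeq2 1.42.0, limma-voom 3.58.1, other scaling factors, filters, prior counts, a replicate block and leaving out libraries were alternatives. The edgeR fits without and with the replicate block, DESeq2 and limma-voom were tried on simulated counts that held no replicate effect. The other settings were not tried on simulated counts. Figures were drawn with matplotlib 3.10.9.

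The labels number the replicates 1 to 3 in both lines. Deviations from the line means correlated at 0.509 to 0.588 between same-numbered libraries and at -0.504 to -0.0285 between others. Deviations cancel out within each line, so positive same-numbered values force negative ones among the others, which are no separate evidence of pairs. The same-numbered values were over a minimum set at 0.1, so the numbers were taken as pairs. Blocked values are given where they change a call. The study calls the replicates independent, but what a shared number stands for is not given in the sources used here.

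The genes and lists were chosen with earlier results of these data known. Named genes are all members with a row, the 6 stress sensors, and from each list up to 4 called genes in each direction or, with none called, the 2 of smallest p.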

Additional observations from a re-analysis of the deposited data

How the results depend on the processing

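Over all genes, 1044 were called by edgeR, against 463 with at least 10 counts asked of every library, 2279 by DESeq2, 4127 with the replicate block, 8327 of 16669 tested with that block once replicate 3 of both lines was left out, and 306 (without ZMELR1 replicate 1) to 1149 (without ZMELR1 replicate 3) with single libraries left out. Of the 8 stress response genes, 0 in the edgeR fit, DESeq2 called 1, the replicate block 2, and the block without replicate 3 of both lines 5. Of the list genes, 8 in the edgeR fit, these settings called 4 (at least 10 counts in every library), 18 (DESeq2), 47 (replicate block), 107 (block without replicate 3 of both lines) and 2 to 9 with single libraries left out. The cause was not tested.

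For xbp1 the log2 fold change was 0.61 in DESeq2, 0.65 with the replicate block and 0.55 with the block and without replicate 3 of both lines, each past the threshold, and for asns it was -0.86 and -0.58 under the 2 blocked fits. The block without replicate 3 of both lines also put ddit3 (0.50), trib3 (-0.61), atf3 (-0.58) and atf4b1 (-0.34) past the threshold, a fit that rests on 2 libraries a line. Apart from the blocked values given beside each result, the replicate block changed no call of a gene named with a test.

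Among the 8 genes, the atf4 rows and the genes taken by the naming rule, directions turned for 6, none of which passed the test in the edgeR fit. Leaving out single libraries gave log2 fold changes of -0.016 to 0.20 for atf6, -0.35 to 1.18 for atf3, -0.51 to 0.071 for chac1, -0.022 to 0.15 for atf4b2 and -0.70 to 0.97 for eif2ak2. Without replicate 3 of both lines the values were -0.071 and -0.068 for atf6 without and with the block, -0.57 for atf3, -0.10 for atf4b2 without and with the block, 0.27 and 0.31 for eif2ak2, and -0.042 and -0.039 for eif2ak4. For eif2ak2 limma-voom gave 0.10 and the replicate block 0.17. Of the genes named after their values were seen, ppp1r15a ran from -0.26 to 2.27 and sqstm1 from -1.47 to 1.29 with single libraries left out, and the block gave -0.30 for sqstm1. The cause was not tested.

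Scaling by RLE factors or by library size alone, a filter of at least 1 count in total, limma-voom and an older form of the quasi-likelihood fit, added after seeing the data, called none of the 8 genes and turned none of their directions. With 3 libraries a line, the smaller differences are within the error, and ddit4 rests on 31 to 104 counts a library.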
